A study of Mus musculus with 12 samples.

Results

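The genes described here are 4 members of the fatty acid binding protein family, Fabp3, Fabp4, Fabp5 and Fabp7, out of 31053 genes listed in the count tables of all 12 libraries. They were chosen by name, and Fabp5 was picked for the shift of its own UMI counts in stromal cells between groups. Its levels in stromal cells and in their sub-clusters are therefore given as a description with no test. The 4 genes were followed in every marker-defined cell class, depot and group.

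Fatty acid binding proteins are small cytosolic proteins that hold long-chain fatty acids in an internal pocket and carry them between membranes, lipid droplets, mitochondria and the nucleus. Fabp4 (aP2) is abundant in adipocytes and in capillary endothelium of fat, and is a known target of PPARγ, the nuclear receptor that rosiglitazone (Rosi) activates. Fabp5 (the epidermal type, also called mal1) is made by macrophages, endothelium and adipocytes, Fabp3 is the heart type, and Fabp7 is the brain type.

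All 4 are compact genes with 4 exons. On GRCm38, Fabp5 (ENSMUSG00000027533) lies at chr3:10012548-10016607 on the plus strand and Fabp4 (ENSMUSG00000062515) at chr3:10204088-10208576 on the minus strand, with the relatives Pmp2, Fabp9 and Fabp12 beside it. Fabp3 (ENSMUSG00000028773) lies at chr4:130308595-130315463 and Fabp7 (ENSMUSG00000019874) at chr10:57784881-57788450, both on the plus strand. The coding sequences run to 399 bases for Fabp3, 396 for Fabp4, 405 for Fabp5 and 396 for Fabp7, and any pair of them is identical at 61.3% (Fabp3 and Fabp5) to 71.3% (Fabp3 and Fabp7) of aligned bases. One stretch near the start of each coding sequence is shown to make this likeness visible. Capitals mark the 19 of 30 bases that all 4 share, and the sequences were read from the GENCODE M21 transcripts of GRCm38, 5′ to 3′.
Fabp3: tTTtGAtGAcTACATGAAgtcacTcGGtGT
Fabp4: cTTcGAtGAtTACATGAAagaagTgGGaGT
Fabp5: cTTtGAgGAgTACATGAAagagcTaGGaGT
Fabp7: tTTtGAtGAgTACATGAAagctcTgGGcGT
The windows start at coding base 54 in Fabp5 and at base 48 in the other members. The longest run of bases shared by 2 of the 4 whole transcripts was 20 (Fabp3 and Fabp7), and it was 12 for Fabp4 and Fabp5. Near-identical processed copies of Fabp3 and Fabp5 exist elsewhere in the mouse genome, so reads could be split with them and the counts of these 2 members are uncertain to that extent.

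The study asked how 3 days of PPARγ activation remodel the cells of obese white fat. Stromal vascular fractions, which are the cells left after floating adipocytes are removed from digested fat, were profiled by droplet single-cell RNA-seq from epididymal (eWAT) and inguinal (iWAT) fat of 12-week-old male mice. WT-Veh mice were C57BL/6J given methylcellulose vehicle, ob/ob-Veh mice were Lepob/Lepob mice, which lack functional leptin, given the same vehicle, and ob/ob-Rosi mice were Lepob/Lepob mice given 30 mg/kg rosiglitazone by gavage each morning and evening for 3 days. There were 2 libraries per group and depot, each a biological replicate by its label, and the labels do not say whether 1 mouse gave both depots. Every group carries either both normal or both mutant Lep alleles throughout the body, and no wild-type mouse given Rosi was analysed here.

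Libraries held 20132553 to 92475986 UMIs (distinct captured transcripts), and 126095 cells passed the filters, 57613 from eWAT and 68482 from iWAT. Marker genes fixed without any Fabp gene named 15 broad classes in eWAT and 11 in iWAT. Unnamed clusters held 1.74% of eWAT cells but 25.2% of iWAT cells, including 8538 of the 17063 cells of the library labelled WT-Veh 1 and 3517 and 2539 of the 7205 and 7203 cells labelled ob/ob-Veh. Cell barcodes shared by 2 libraries numbered at most 99. Lep, counted at its 3′ end, does not show the point mutation, so it does not test genotype directly. Its transcript is known to be raised in ob/ob fat. Scaled to 100 UMIs of the adipocyte gene Adipoq, eWAT held 30.5 and 79.3 UMIs of Lep with the label WT-Veh, 3.59 and 10.3 with ob/ob-Veh, and 259 and 361 with ob/ob-Rosi. The iWAT values were 20.5 and 31.4, then 33.3 and 14.0, then 164 and 139. They rest on few UMIs. In the same order, eWAT held 36, 153, 8, 60, 75 and 318 of Lep and 118, 193, 223, 585, 29 and 88 of Adipoq. With the label ob/ob-Veh, iWAT held 4 and 8 of Lep and 12 and 57 of Adipoq. Since the eWAT values go against what is known of the genotypes, every group below is named as the labelled group, and each direction drawn between groups rests on the labels. Lipid-associated macrophages (LAMs), which express Trem2 and are known to gather in obese fat, numbered 3985 and 1288 cells in eWAT labelled WT-Veh, 51 and 56 labelled ob/ob-Veh, and 2469 and 2737 labelled ob/ob-Rosi. Lipid-laden macrophages can be lost with the floating layer that the preparation discards, so LAM numbers do not test the labels.

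Levels are given in CPM, the UMIs of a gene per 1000000 UMIs summed over all cells of a class in a library, for classes with at least 20 cells there. Where 6 values are given, they run from the 2 libraries labelled WT-Veh to the 2 labelled ob/ob-Veh and the 2 labelled ob/ob-Rosi. Fewer cells expressing a gene and less RNA per cell cannot be told apart in such sums. Free RNA is also counted in every droplet. B, T and NK cells, pooled as lymphocytes, served as an approximate measure of it, because they are not a main source of Fabp4. Some T cells may express Fabp4, and activated lymphocytes can express some Fabp5. Part of the lymphocyte level may therefore be their own.

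Fabp4 was the member of endothelial cells. In eWAT the endothelial levels were 40930 and 50960 CPM labelled WT-Veh, 42800 and 55810 CPM labelled ob/ob-Veh, and 40160 and 53720 CPM labelled ob/ob-Rosi. The 3 groups overlapped fully. The log2 fold change was -0.03 ± 0.22 (SE) for ob/ob-Veh minus WT-Veh (edgeR adjusted p = 0.95) and 0.05 ± 0.22 for ob/ob-Rosi minus ob/ob-Veh (edgeR adjusted p = 0.93). Each difference was called in 1 alternative setting, with the same sign. Adipocytes also carry Fabp4, and the adipocyte RNA list summed to 171, 217, 1120, 1114, 145 and 160 CPM in these cells. Sub-clusters led by another lineage held 234 of 280 and 537 of 636 cells labelled ob/ob-Veh. They held 129 of 421 and 187 of 556 labelled WT-Veh. The part of adipocyte RNA in endothelial Fabp4 was not tested. Endothelial cells, between 280 and 983 cells a library, held 32.1% to 90.6% of all Fabp4 UMIs in eWAT. In iWAT the endothelial levels were 34550 and 63570 CPM labelled WT-Veh, 23280 and 44320 CPM labelled ob/ob-Veh, and 64710 and 47940 CPM labelled ob/ob-Rosi. These libraries spread more than those of eWAT, and neither the ob/ob difference (-0.80 ± 0.65, edgeR adjusted p = 0.53) nor the Rosi difference (1.00 ± 0.65, edgeR adjusted p = 0.43) passed the test.

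**Figure D1:**
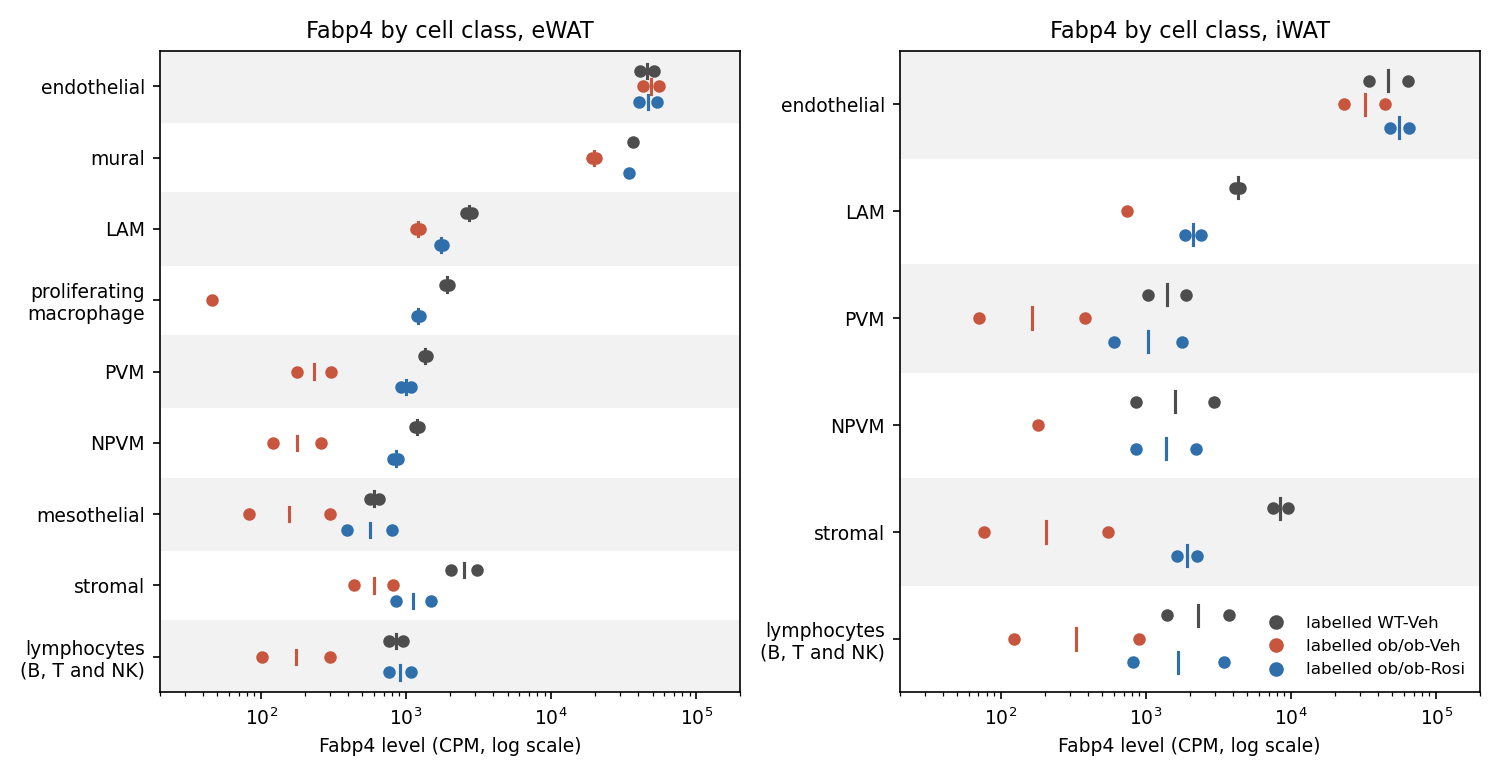
Fabp4 level by cell class in eWAT (left) and iWAT (right), in CPM on a log axis. Each point is 1 library, short vertical lines are geometric means of 2 libraries, and classes with fewer than 20 cells in a library have no point there. Endothelial cells sit between 23280 and 64710 CPM in all 12 libraries, and in the other classes the libraries labelled ob/ob-Veh are the lowest, except iWAT lymphocytes, where 893 CPM labelled ob/ob-Veh lies above 811 CPM labelled ob/ob-Rosi.

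Among endothelial sub-clusters, capillary endothelial-like cells (Gpihbp1, Car4, Timp4) carried 49670 to 63050 CPM of Fabp4 in the 4 eWAT libraries with enough of them, and 29520 to 71200 CPM in the 6 iWAT libraries. Lymphatic endothelial-like cells of eWAT (Prox1, Lyve1) held 1273 CPM in the library labelled WT-Veh 1 and 175 and 3676 CPM in the libraries labelled ob/ob-Veh, beside 52390 CPM in capillary cells of that first library. A small eWAT mural cluster, of pericytes and smooth muscle, showed 19040 to 36940 CPM in the 4 libraries that had 20 cells of it. Its 10 leading genes held 4 of the mural list and 4 of the adipocyte RNA list (Car3, Cidec, Retn and Adipoq) beside the adipocyte gene Cfd, so the level is uncertain.

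Macrophages carried much less Fabp4. In eWAT LAMs the levels were 2592 and 2866 CPM labelled WT-Veh, 1251 and 1165 CPM labelled ob/ob-Veh, and 1712 and 1782 CPM labelled ob/ob-Rosi, and no 2 groups overlapped. Fabp4 was lower in LAMs labelled ob/ob-Veh than WT-Veh (log2 fold change -1.35 ± 0.25, edgeR adjusted p = 0.0106), and this call was lost without the first (-1.45, edgeR adjusted p = 0.087) or the second (-1.25, edgeR adjusted p = 0.123) library labelled ob/ob-Veh. In iWAT LAMs Fabp4 was 4128 and 4425 CPM labelled WT-Veh, 742 CPM in the first library labelled ob/ob-Veh, and 2413 and 1844 CPM labelled ob/ob-Rosi, with no call. The higher eWAT level labelled ob/ob-Rosi than ob/ob-Veh did not pass (0.74 ± 0.25, edgeR adjusted p = 0.179). Perivascular macrophages (PVMs) held 1395, 1322, 177, 303, 918 and 1078 CPM in eWAT, and lymphocytes of the same libraries held 761, 947, 102, 296, 1083 and 761 CPM. The values labelled ob/ob-Veh were thus lowest in LAMs, PVMs and lymphocytes alike, and the part of free RNA in the result was not tested.

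In stromal cells, the Pdgfra+ fibroblast-like cells that include adipocyte progenitors, Fabp4 was low in libraries labelled ob/ob-Veh. The eWAT levels were 2027 and 3076 CPM labelled WT-Veh, 436.9 and 818.2 CPM labelled ob/ob-Veh, and 851.4 and 1484 CPM labelled ob/ob-Rosi. All 3 groups were apart. Fabp4 fell by 2.10 ± 0.37 on the log2 scale between WT-Veh and ob/ob-Veh (edgeR adjusted p = 0.0071), a call that was lost without the second library labelled WT-Veh (-1.85, edgeR adjusted p = 0.0506), and the Rosi difference was 0.98 ± 0.35 (edgeR adjusted p = 0.13). The stromal level was 2.66, 3.25, 4.28 and 2.76 times the lymphocyte level in the vehicle libraries, and 0.786 and 1.95 times in those labelled ob/ob-Rosi, so lymphocytes moved in the same direction. In these stromal cells the capillary gene Gpihbp1 was 11.06, 19.55, 2.47, 11.16, 14.89 and 25.7 CPM. The endothelial marker list summed to 37.8, 33.5, 9.955, 29.2, 44.1 and 47.1 CPM, and the part of endothelial RNA was not tested.

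In iWAT stromal cells Fabp4 stood at 9469 and 7547 CPM labelled WT-Veh, 76.9 and 546.6 CPM labelled ob/ob-Veh, and 2233 and 1631 CPM labelled ob/ob-Rosi. The log2 fold changes were -4.89 ± 0.85 (edgeR adjusted p = 0.077) and 2.77 ± 0.77 (edgeR adjusted p = 0.115), neither called. The difference between depots was not called for the ob/ob effect (-2.76 ± 0.92, edgeR adjusted p = 0.362) or the Rosi effect (1.80 ± 0.91, edgeR adjusted p = 0.677). The iWAT ob/ob difference was called in 5 alternatives, those without the first or the second library labelled WT-Veh among them. The iWAT Rosi difference was called in 4. Stromal cells stood 2.53 and 5.44 times above lymphocytes labelled WT-Veh, but below them in both libraries labelled ob/ob-Veh (ratios of 0.628 and 0.612). The pool was not alike, with 1844 B, 2786 T and 120 NK cells labelled WT-Veh 1 and 113, 65 and 1002 labelled WT-Veh 2. Their Fabp4 levels were 4132, 3628 and 2308 CPM, then 1198, 1943 and 1372 CPM, so the ratios also depend on this mix. Gpihbp1 in these iWAT stromal cells was 29.3, 34.6, 0.684, 10.5, 62.8 and 45.5 CPM. Their endothelial marker list summed to 90.4, 55.8, 12.4, 42.0, 103 and 91.5 CPM, and the part of endothelial RNA was not tested. The cells compared were not alike between groups, since sub-clusters made up mostly of cells labelled ob/ob-Veh held 96.3% and 94.2% of the stromal cells labelled ob/ob-Veh and 0.254% to 4.12% of the others in iWAT, and 97.3% and 97.0% against 0.215% to 1.20% in eWAT.

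The iWAT level labelled WT-Veh came largely from few cells. One stromal sub-cluster of 314 cells, named preadipocyte-like by its markers, had 45580 CPM of Fabp4, 5496 CPM of Lpl, the lipase that releases fatty acids from lipoproteins, 1931 CPM of the fatty acid transporter Cd36 and 334 CPM of the stromal marker Pdgfra. The endothelial markers Pecam1 (6.6 CPM) and Cdh5 (4.6 CPM) were near 0 in it. The adipocyte genes Adipoq (80.8 CPM), Plin1 (66.5 CPM) and Car3 (737 CPM) were present, and its Adipoq and Plin1 levels were the highest of all stromal and endothelial sub-clusters of both depots. Adipoq was at most 1.82 CPM and Plin1 at most 3.27 CPM in the other iWAT stromal sub-clusters. In iWAT preadipocyte-like cells the adipocyte RNA list summed to 515 and 370 CPM labelled WT-Veh, 208 CPM in the second library labelled ob/ob-Veh, and 31.4 and 48.6 CPM labelled ob/ob-Rosi. Its part in the Fabp4 level was not tested. By library its cells numbered 82 and 210 labelled WT-Veh, 0 and 1 labelled ob/ob-Veh, and 3 and 18 labelled ob/ob-Rosi. Counted by cell rather than by cluster, stromal cells in which Fabp4 made up at least 2% of UMIs were 54 of 413 (13.1%) and 261 of 2979 (8.76%) labelled WT-Veh in iWAT. They were 0 of 3301, which allows up to 0.0909%, and 0 of 3646, which allows up to 0.0823%, labelled ob/ob-Veh. Those labelled ob/ob-Rosi were 3 of 2640 (0.114%) and 6 of 6703 (0.0895%). In eWAT such cells were 21 of 3729 (0.563%) and 32 of 1699 (1.88%) labelled WT-Veh, none in either library labelled ob/ob-Veh, and 0 of 2496 and 3 of 2535 labelled ob/ob-Rosi. Among iWAT lymphocytes, 1 of 1844 B cells and 1 of 2786 T cells of the library labelled WT-Veh 1 and 2 of 65 T cells (3.08%) of that labelled WT-Veh 2 reached this share. Limits cover counting error only. In progenitor-like cells of iWAT (Pi16, Dpp4) Fabp4 was 1214, 631, 29.8, 343, 1339 and 397 CPM, below the lymphocyte level of every library.

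**Figure D2:**
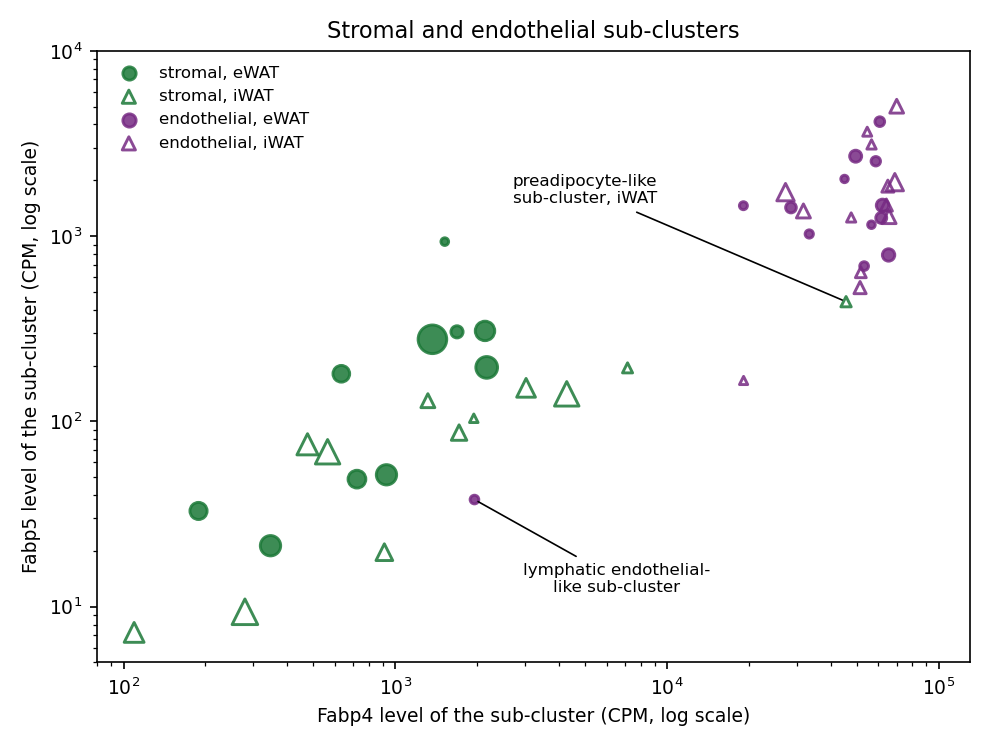
Fabp4 (x) against Fabp5 (y) in each stromal (green) and endothelial (purple) sub-cluster, in CPM on log axes, with all libraries of a depot summed. Filled circles are eWAT, open triangles iWAT, and the area grows with the number of cells. The preadipocyte-like sub-cluster of iWAT lies at 45580 CPM of Fabp4 among the endothelial points, with 442 CPM of Fabp5.

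Endothelial Fabp5 differed between groups in both depots. In eWAT the levels were 3818 and 3475 CPM labelled WT-Veh, 592.5 and 552.7 CPM labelled ob/ob-Veh, and 1308 and 1113 CPM labelled ob/ob-Rosi. No group overlapped another. Fabp5 fell by 2.80 ± 0.24 on the log2 scale from WT-Veh to ob/ob-Veh (edgeR adjusted p = 0.00023), rose by 1.19 ± 0.23 from ob/ob-Veh to ob/ob-Rosi (edgeR adjusted p = 0.017), and stayed lower labelled ob/ob-Rosi than WT-Veh (-1.61 ± 0.23, edgeR adjusted p = 0.039). The Rosi call was lost without the first (1.24, edgeR adjusted p = 0.108) or second (1.1, edgeR adjusted p = 0.149) library labelled ob/ob-Veh and with Scrublet doublets left out (1.13, edgeR adjusted p = 0.0563). The call between ob/ob-Rosi and WT-Veh was lost in 7 of 19 alternatives (edgeR adjusted p from 0.0522 to 0.203), among them those without either library labelled WT-Veh or either labelled ob/ob-Rosi, and kept its direction in each (-1.78 to -1.52). The endothelial level was 9.91, 12.2, 18.1 and 16.5 times the lymphocyte level in the vehicle libraries, and 2.98 and 2.57 times in those with the label ob/ob-Rosi. Less the lymphocyte level it was 3430, 3190, 560, 519, 869 and 680 CPM. LAM genes also moved in these sums, with Trem2 at 366, 336, 8.58, 8.65, 359 and 359 CPM and the 11 genes of the LAM list, all above 0, at 3756, 3416, 727, 659, 3963 and 3911 CPM. Their part in endothelial Fabp5 was not tested. With each cell thinned to 700 UMIs, which every kept cell had, the share of endothelial cells with a Fabp5 UMI was 70.1% and 70.0% labelled WT-Veh, 24.3% and 27.2% labelled ob/ob-Veh, and 50.9% and 44.9% labelled ob/ob-Rosi. Unthinned, these shares were 82.7%, 88.7%, 67.1%, 67.1%, 78.5% and 81.9%, at medians of 1848 to 4688.5 UMIs a cell. Lymphocytes thinned in the same way reached 1.76% to 28.8%.

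In iWAT endothelium the levels were 2397 and 4139 CPM labelled WT-Veh, 435.9 and 376.3 CPM labelled ob/ob-Veh, and 1839 and 888.3 CPM labelled ob/ob-Rosi. The order of the groups was that of eWAT. Trem2 in these cells was 114, 71.0, 3.21, 9.07, 78.2 and 136 CPM and the LAM list, with 10 or 11 genes above 0, summed to 2210, 1407, 522, 528, 1360 and 1844 CPM. Fabp5 fell by 3.29 ± 0.50 on the log2 scale labelled ob/ob-Veh (edgeR adjusted p = 0.026). The call was lost without either library labelled ob/ob-Veh (-3.38 and -3.22, edgeR adjusted p = 0.322 and 0.217), when cells were thinned (-3.24, edgeR adjusted p = 0.0594), and without the sub-clusters of another lineage (-3.42, edgeR adjusted p = 0.0617). The higher level labelled ob/ob-Rosi was not called (2.04 ± 0.48, edgeR adjusted p = 0.075), nor was ob/ob-Rosi minus WT-Veh (-1.25 ± 0.46, edgeR adjusted p = 0.44). In 6 alternatives the difference between ob/ob-Rosi and ob/ob-Veh was called, with the same sign. A difference between depots in either effect was not called, with interaction terms of -0.46 ± 0.50 and 0.79 ± 0.50 (edgeR adjusted p = 1 for both).

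Which endothelial cells were compared differed between groups. Sub-clusters made up mostly of cells labelled ob/ob-Veh held 70.7% and 73.4% of the eWAT endothelial cells labelled ob/ob-Veh and at most 7.84% in the other libraries, and in iWAT 76.4% and 83.6% against at most 0.658%. A further sub-cluster of no named type held 1396 of the 1731 endothelial cells of the iWAT library labelled WT-Veh 1. The largest eWAT one, of 583 cells, was led by Cfd, Car3, Scd1 and Retn, which are adipocyte genes. The summed level of the adipocyte RNA list in eWAT endothelial cells was 171, 217, 1120, 1114, 145 and 160 CPM. With cells holding any UMI of that list left out, the ob/ob difference was -3.64 and the Rosi difference 2.11. Leaving out all sub-clusters led by another lineage, an alternative chosen after seeing the data, gave -6.12 ± 0.43 and 4.39, but the remaining cells labelled ob/ob-Veh then numbered 35 and 64 lymphatic, 9 and 29 arterial, and 2 and 6 capillary cells. Among cells named as one type, capillary cells of eWAT had 5128 and 4396 CPM of Fabp5 labelled WT-Veh and 1438 and 1260 CPM labelled ob/ob-Rosi. Capillary cells of iWAT had 3673 and 4991 CPM labelled WT-Veh, 620.1 and 481.1 CPM labelled ob/ob-Veh, and 2039 and 1090 CPM labelled ob/ob-Rosi, again with no overlap. These capillary cells sat in different sub-clusters by group, since 68 of 69 and 472 of 491 of those labelled ob/ob-Veh lay in a sub-cluster that held 3 and 1 of the 191 and 828 labelled WT-Veh. Fabp4 in the same iWAT capillary cells was 53810, 70390, 29520, 54030, 71200 and 59620 CPM, with the second library labelled ob/ob-Veh inside the range of the others.

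**Figure D3:**
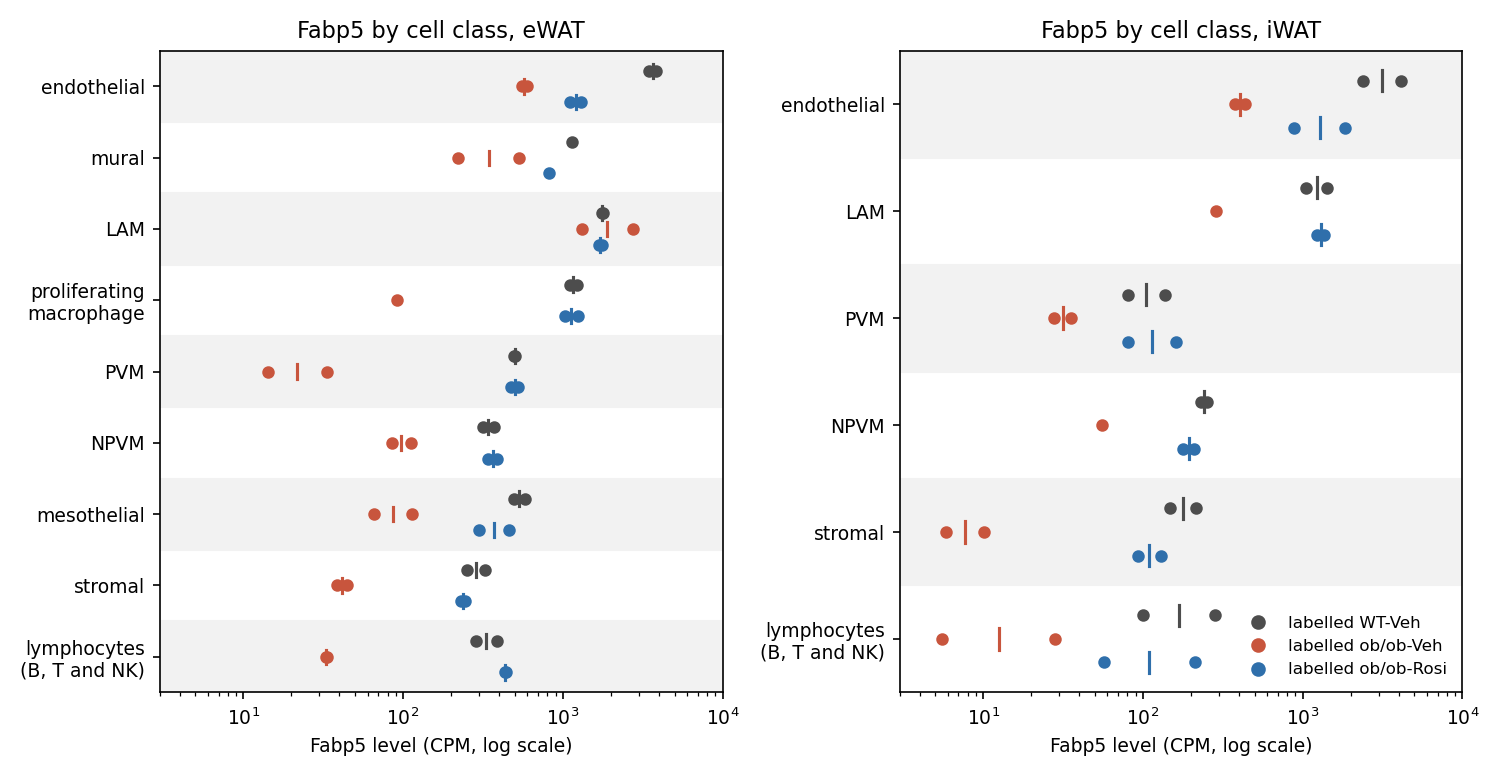
Fabp5 level by cell class in eWAT (left) and iWAT (right), in CPM on a log axis, drawn as for Fabp4. Endothelial cells labelled WT-Veh, at 2397 to 4139 CPM, are the highest points of both panels, and libraries labelled ob/ob-Veh are lowest in each class shown except eWAT LAMs, where they stand at 2737 and 1309 CPM.

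LAMs held 54.7% and 46.9% of the eWAT Fabp5 UMIs labelled WT-Veh and 63.3% and 64.2% of those labelled ob/ob-Rosi, more than any other class there. In libraries labelled ob/ob-Veh they held 15.2% and 9.52%, below endothelial cells (25.8% and 44.5%) and stromal cells (25.3% and 16.2%). Their level was 1750 and 1789 CPM labelled WT-Veh, 2737 and 1309 CPM labelled ob/ob-Veh, and 1763 and 1676 CPM labelled ob/ob-Rosi. Only 51 and 56 cells stand behind the middle pair, and these levels lie on either side of the rest. The share of LAMs with a Fabp5 UMI was lower labelled ob/ob-Veh than in the other groups, with no overlap. In thinned cells it was 49.5%, 52.7%, 25.5%, 28.6%, 44.4% and 50.5%, and unthinned 76.8%, 85.9%, 35.3%, 55.4%, 72.9% and 88.05%. These shares were not tested. Neither difference in level passed the test (0.03 ± 0.30, edgeR adjusted p = 0.98, and -0.04 ± 0.30, edgeR adjusted p = 0.97). Finer clustering turned the direction of both and called them, with -1.73 ± 0.28 (edgeR adjusted p = 0.000224) and 1.72 ± 0.28 (edgeR adjusted p = 0.000208), so this value depends on which cells are called LAMs. In iWAT the LAM level was 1052 and 1420 CPM labelled WT-Veh, 286 CPM in the first library labelled ob/ob-Veh (39 cells), and 1237 and 1361 CPM labelled ob/ob-Rosi. With the second library labelled ob/ob-Veh absent from that fit, the differences were -2.43 ± 0.45 (edgeR adjusted p = 0.117) and 2.54 ± 0.45 (edgeR adjusted p = 0.166).

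The other macrophages of eWAT held less Fabp5 and showed wide gaps. PVMs, with 1326 to 3212 cells a library, held 501 and 496 CPM labelled WT-Veh, 14.2 and 33.4 CPM labelled ob/ob-Veh, and 474 and 525 CPM labelled ob/ob-Rosi. Fabp5 fell by 4.54 ± 0.39 on the log2 scale and rose by 4.57 ± 0.39 (edgeR adjusted p = 0.000906 and 0.00064). Trem2 moved the same way in PVMs, at 804, 921, 75.6, 96.4, 669 and 1108 CPM, and the part of LAM RNA was not tested. Non-perivascular macrophages held 372, 315, 85.2, 112, 341 and 389 CPM, and proliferating macrophages 1232 and 1102 CPM labelled WT-Veh, 91.4 CPM in the first library labelled ob/ob-Veh, and 1237 and 1025 CPM labelled ob/ob-Rosi. Mesothelial cells, the lining of the epididymal pad, held 577, 494, 65.4, 114, 297 and 462 CPM. Lymphocytes of these libraries held 385.2, 285.1, 32.82, 33.41, 438.6 and 433.3 CPM, lowest with the label ob/ob-Veh as in the classes above, but with both ob/ob-Rosi values over both of WT-Veh. In T cells alone Fabp5 fell by 3.43 ± 0.35 and rose by 3.81 ± 0.36 (edgeR adjusted p = 0.000042 and 0.000024). A fall of this order was thus found in lymphocytes as well as in macrophages, and the part of free RNA in it was not tested.

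Fabp5 in stromal cells, the readout for which the gene was picked, is described without a test. In eWAT it was 323.6 and 252.4 CPM labelled WT-Veh, 38.6 and 44.59 CPM labelled ob/ob-Veh, and 242.6 and 230.8 CPM labelled ob/ob-Rosi, from 767 to 3017 UMIs a library. Set against lymphocytes of the same library, these are ratios of 0.84, 0.885, 1.18, 1.33, 0.553 and 0.533, so stromal cells carried less Fabp5 than lymphocytes in 4 of the 6 libraries. In iWAT the stromal levels were 214.8 and 148.5 CPM labelled WT-Veh, 5.87 and 10.1 CPM labelled ob/ob-Veh, and 129.5 and 93.0 CPM labelled ob/ob-Rosi, with ratios to lymphocytes of 0.758, 1.48, 1.06, 0.361, 0.613 and 1.63. The ratios labelled ob/ob-Veh rest on 1 and 8 lymphocyte UMIs of Fabp5, so nothing is read from them. Thinned to 700 UMIs, 18.7%, 16.7%, 2.36%, 2.95%, 14.6% and 12.7% of eWAT stromal cells had a Fabp5 UMI, beside 22.6%, 18.6%, 1.76%, 2.78%, 28.8% and 18.5% of lymphocytes. Unthinned shares were 33.3%, 54.7%, 14.9%, 15.9%, 38.3% and 50.9% of stromal cells (medians of 1349 to 6648.5 UMIs a cell) and 38.2%, 45.1%, 7.46%, 7.98%, 39.2% and 47.7% of lymphocytes (medians of 874 to 2340 UMIs), so stromal cells lay above lymphocytes in 4 of 6 libraries when unthinned and below them in 4 of 6 when thinned.

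**Figure D4:**
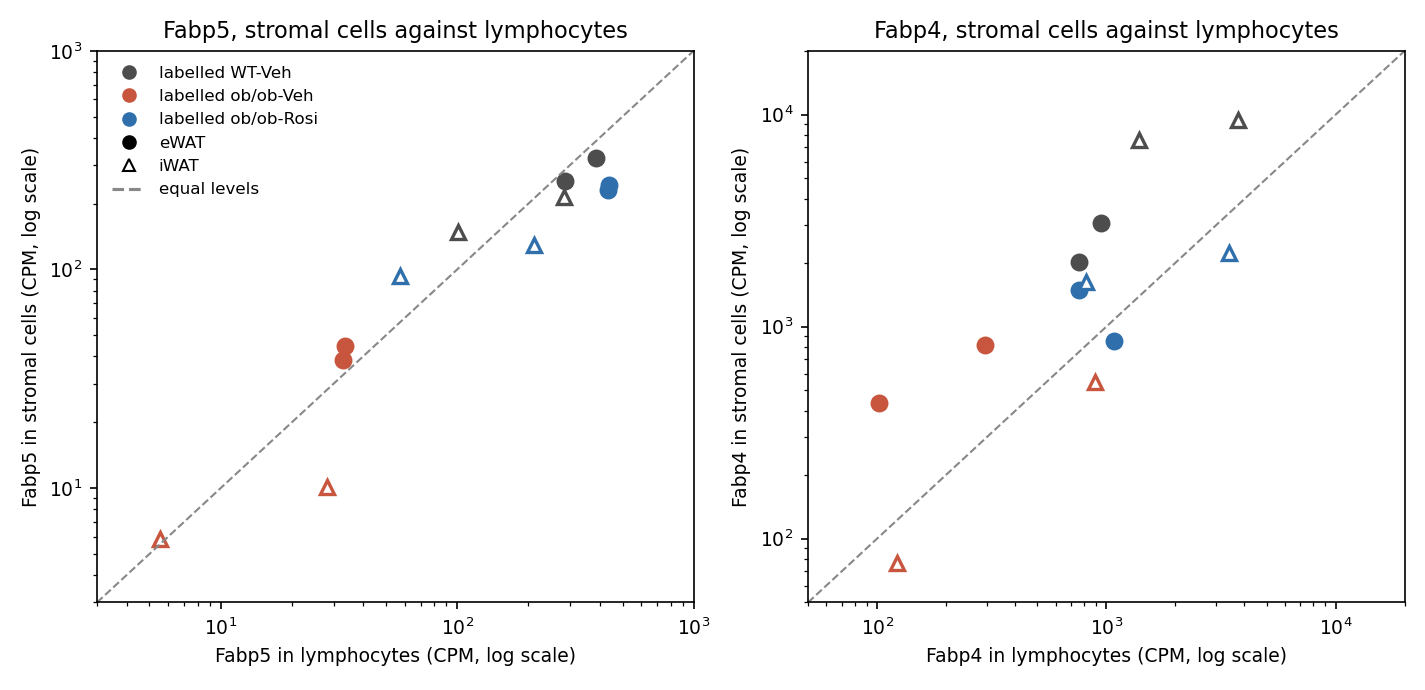
Level in stromal cells (y) against that in B, T and NK cells (x) of the same library, in CPM on log axes, for Fabp5 (left) and Fabp4 (right). Each of the 12 points per panel is 1 library, and the dashed line marks equal levels. Fabp5 points lie along the line with ratios of 0.361 to 1.63, while Fabp4 points lie 2.53 to 5.44 times above it with the label WT-Veh, 4.28 and 2.76 times above in eWAT with ob/ob-Veh, and at 0.612 to 2.01 times in the other 6 libraries. The iWAT lymphocyte levels of Fabp5 labelled ob/ob-Veh rest on 1 and 8 UMIs.

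Within stromal cells of eWAT, progenitor-like cells held 235.8, 182.6, 24.1, 34.1, 165 and 189 CPM, and preadipocyte-like cells 306.6, 237, 251 and 204.7 CPM in the 4 libraries with at least 20 of them (2 labelled WT-Veh, then 2 labelled ob/ob-Rosi). In iWAT preadipocyte-like cells held 232 and 364 CPM labelled WT-Veh, 21.9 CPM in the second library labelled ob/ob-Veh, and 135 and 125 CPM labelled ob/ob-Rosi, while progenitor-like cells held 189, 72.3, 4.76, 7.14, 120 and 70.1 CPM. The 364 CPM in the second library labelled WT-Veh lay above the lymphocytes of that library, at 100.3 CPM. Trem2, a defining gene of LAMs, moved with stromal Fabp5. In eWAT stromal cells it stood at 201, 146, 2.32, 4.54, 125 and 161 CPM, and the 11 genes of the LAM list summed to 3772, 3643, 1175, 1367, 3712 and 4700 CPM, with all 11 above 0 in every library. UMIs of Fabp5 per UMI of Trem2 were 1.61, 1.73, 16.7, 9.83, 1.95 and 1.44 in stromal cells, 1.16, 0.832, 3.86, 3.67, 1.04 and 0.96 in lymphocytes, and 0.993, 0.927, 2.57, 1.54, 1.03 and 0.775 in LAMs. In endothelial cells the ratio was 10.4, 10.3, 69.1, 63.9, 3.65 and 3.1, above that of lymphocytes in each library. With the label ob/ob-Veh the ratios rest on few Trem2 UMIs. These were 61 and 78 in stromal cells, 21 and 15 in lymphocytes, and 15 and 33 in endothelial cells. The part of LAM RNA in the stromal level was not tested.

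Fabp7 UMIs of eWAT came mostly from LAMs in 5 of 6 libraries. LAMs gave 265, 177, 24, 4, 243 and 228 UMIs, or 18.1, 17.6, 108, 11.6, 20.2 and 10.0 CPM, and 53.1% to 66.3% of all Fabp7 UMIs but 11.1% in the second library labelled ob/ob-Veh, where unnamed clusters held 47.2% and non-perivascular macrophages 27.8%. Unnamed clusters had 26.0, 26.1, 18.7, 11.9, 75.8 and 8.64 CPM, above LAMs in 4 of 6 libraries. Proliferating macrophages had 16.2 and 12.9 CPM labelled WT-Veh, 0 UMIs in the first library labelled ob/ob-Veh, and 15.3 and 7.37 CPM labelled ob/ob-Rosi. The high value labelled ob/ob-Veh rests on 24 UMIs in 51 cells. Non-perivascular macrophages had 20.7, 12.0, 1.20, 3.66, 12.5 and 8.59 CPM, a fall of 3.00 ± 0.57 and a rise of 2.26 ± 0.55 on the log2 scale (edgeR adjusted p = 0.0037 and 0.0159). Without the first library labelled ob/ob-Veh both calls were lost (-2.34 and 1.62, edgeR adjusted p = 0.065 and 0.204), as was the fall without the first labelled WT-Veh (-2.5, edgeR adjusted p = 0.137). With 6 and 10 UMIs labelled ob/ob-Veh, this pair passed the filter on low counts only through the other groups, so nothing is read from its calls. Endothelial cells had 5, 12, 0, 0, 9 and 13 UMIs and stromal cells 11, 9, 1, 2, 17 and 18, which are calls made on few UMIs that passed the filter in the same way. In iWAT, Fabp7 had 3 to 195 UMIs a library, of which LAMs gave 23, 73, 2, 2, 106 and 88, at 9.61 and 16.6 CPM labelled WT-Veh, 8.95 CPM labelled ob/ob-Veh (2 UMIs) and 14.0 and 12.8 CPM labelled ob/ob-Rosi.

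Fabp3 was scarce in both depots, with 76 to 136 UMIs a library over all eWAT cells and 10 to 87 over iWAT cells. In eWAT LAMs gave 49, 20, 0, 3, 77 and 68 of them, or at most 8.69 CPM. Mesothelial cells gave 28, 5, 40, 62, 6 and 12 UMIs, or 58.1, 9.79, 9.27, 17.6, 12.6 and 28.6 CPM, and the groups overlapped. In PVMs, 15, 18, 4, 10, 20 and 16 UMIs gave the only call for Fabp3, a rise of 1.85 ± 0.53 labelled ob/ob-Rosi (edgeR adjusted p = 0.0499), which was lost in 10 of 18 alternatives, leaving out any 1 of the 6 libraries among them (1.54 to 2.36, edgeR adjusted p up to 0.282). This pair passed the filter on low counts only through the groups other than ob/ob-Veh, so nothing is read from its call. In stromal cells, with 7 to 36 UMIs a library, the ob/ob difference was -0.31 ± 0.54, and no change of Fabp3 was detectable there at this depth.

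Counted over the 13 eWAT classes that could be fitted, Fabp4 passed the filter in 13, Fabp5 in 12 beside stromal cells, Fabp7 in 6 and Fabp3 in 5. Of these 36 pairs of member and class, 24 were lower labelled ob/ob-Veh than WT-Veh and none higher, where 4.78% of all gene and class pairs were called (2.6% lower). By member these were 10 for Fabp5, 9 for Fabp4, 5 for Fabp7 and 0 for Fabp3. Lymphocytes, the measure of free RNA, gave 6 calls in 6 pairs. Endothelial cells, LAMs and stromal cells gave 5 in 10, and the other classes 13 in 20. In 7 of the 36 pairs, a library labelled ob/ob-Veh held at most 3 UMIs, and 5 of these were among the 24. The 5 passed the filter through the other groups, which favours a difference, so nothing is read from them. They are Fabp7 in endothelial cells, stromal cells, PVMs and proliferating macrophages and Fabp5 in B cells. In the 29 pairs above that floor, which was chosen after seeing the data, 19 were called, 9 for Fabp4, 9 for Fabp5 and 1 for Fabp7. Of these, Fabp4 and Fabp5 in proliferating macrophages rest on 1 library labelled ob/ob-Veh with 46 cells, which is assumed to vary like the other groups. Where each compared group had 2 libraries, 17 of 25 pairs were called. The filter on low counts is stricter than this floor, so these counts still hold pairs that passed it only through the other groups. Among the calls they are Fabp5 in type 1 conventional dendritic cells (9 and 6 UMIs labelled ob/ob-Veh) and Fabp7 in non-perivascular macrophages (6 and 10). Nothing is read from these either. The 21 calls between ob/ob-Rosi and ob/ob-Veh were all higher, where 4.8% of all pairs were called (2.71% higher), and 17 of the 29 pairs above the floor were among them, or 15 of 25 with 2 libraries in each group. These too hold Fabp5 in the dendritic cells and Fabp7 in non-perivascular macrophages, and Fabp3 in PVMs, which passed the filter only through the other groups. By the kinds of cell above, in the same order, the 21 calls were 5 in 6 pairs, 3 in 10 and 13 in 20. Between ob/ob-Rosi and WT-Veh 1 pair differed, endothelial Fabp5, where 0.0337% were called. The first library labelled ob/ob-Veh mattered most, since 13 and 9 calls were left without it in place of 24 and 21. The classes share libraries and free RNA, so these are not independent counts.

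In iWAT 2 of 18 pairs were called between ob/ob-Veh and WT-Veh, both for Fabp5, in endothelial and T cells (14 at an unadjusted p of at most 0.05), where 0.544% of all pairs were called (0.219% lower). Between ob/ob-Rosi and ob/ob-Veh 1 pair was called, T cell Fabp5, where 0.434% were (12 at an unadjusted p of at most 0.05). The percentages are of adjusted calls. At the unadjusted limit all genes passed far more often, from 994 of 11631 in PVMs to 612 of 2906 in T cells for the ob/ob difference. For the Rosi difference it was from 1174 of 11631 to 721 of 2906 in the same classes. T cell Fabp5 rested on 1066, 10, 0, 1, 54 and 10 UMIs, so it passed the filter through the other groups and nothing is read from its calls. Without such pairs 1 of 13 was called in the ob/ob difference, endothelial Fabp5, and the Rosi difference has no call left. In 5 of those 13 pairs the group labelled ob/ob-Veh was 1 library. For ob/ob-Rosi minus WT-Veh, 0 of 18 pairs were called by edgeR (3 at an unadjusted p of at most 0.05), where 0.0536% of all pairs were called, and 0 by DESeq2. Over all genes, 121 of 7211 in NK cells to 953 of 12400 in endothelial cells reached that unadjusted limit. The counts hung on single libraries, with 0 ob/ob calls left without either library labelled ob/ob-Veh and 8 or 11 made without a library labelled WT-Veh. The Rosi count ran from 0 to 11 in the same way.

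**Figure D5:**
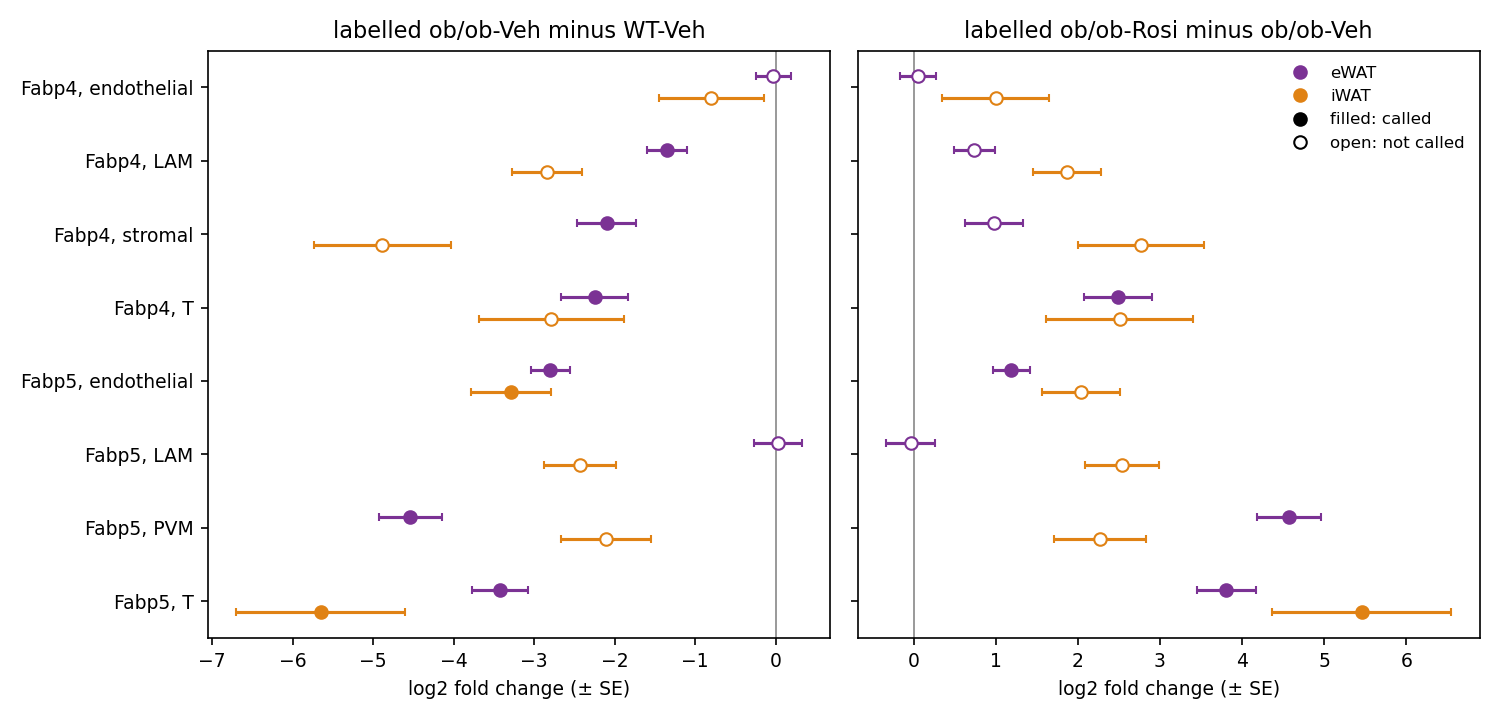
Log2 fold change (x, with SE bars) of Fabp4 and Fabp5 in named classes (y), ob/ob-Veh minus WT-Veh on the left and ob/ob-Rosi minus ob/ob-Veh on the right, in eWAT (purple) and iWAT (orange). Filled points were called at an edgeR adjusted p of at most 0.05. Endothelial Fabp4 in eWAT lies at -0.03 and 0.05, whereas endothelial Fabp5 lies at -2.80 and 1.19, and T cells of eWAT show shifts of the same sign as these.

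Between depots, with the 3 groups weighted equally, 5 of 23 pairs were called, where 5.59% of all pairs were (2.92% lower). Among them, T cell Fabp5 rests on the iWAT counts from which nothing is read. Fabp5 was lower in iWAT than eWAT in LAMs (-1.40 ± 0.22, edgeR adjusted p = 0.0098), PVMs (-1.41 ± 0.27, edgeR adjusted p = 0.0415) and non-perivascular macrophages (-1.04 ± 0.27, edgeR adjusted p = 0.0237). The medians over all genes of these classes were -0.0734, -0.0909 and -0.393, so in non-perivascular macrophages the typical gene was lower too. Fabp4 was higher in iWAT T cells (1.35 ± 0.40, edgeR adjusted p = 0.0259), a class used here to measure free RNA. In iWAT PVMs Fabp5 was 137, 80.3, 35.3, 27.9, 162 and 80.4 CPM, from 4 and 5 UMIs labelled ob/ob-Veh. Lymphocytes of the same libraries held 283, 100, 5.56, 28.0, 211 and 57.2 CPM, those labelled ob/ob-Veh from 1 and 8 UMIs. The part of free RNA in these depot calls was not tested. LAM Fabp5 averaged 1770 CPM in eWAT and 1236 CPM in iWAT with the label WT-Veh, 1720 and 1299 CPM with ob/ob-Rosi, and 2023 and 286 CPM with ob/ob-Veh, so the gap was widest where 51, 56 and 39 cells were measured. In LAMs and non-perivascular macrophages the iWAT group labelled ob/ob-Veh was 1 library, of 39 and 46 cells and with 64 and 4 Fabp5 UMIs, and its spread is assumed to be that of the other groups. None of the 4 calls held throughout. That of LAMs was lost with thinned cells (-0.964, edgeR adjusted p = 0.214) and finer clusters (-0.488, edgeR adjusted p = 0.262), that of PVMs in 13 of 25 alternatives, that of non-perivascular macrophages in 8 of 23 and that of T cell Fabp4 in 10 of 24. With 1 library left out, the PVM difference ran from -1.6 to -1.19 and lost its call without either eWAT library labelled WT-Veh, either iWAT library labelled ob/ob-Veh, the second eWAT library labelled ob/ob-Veh, the second iWAT library labelled WT-Veh or the second library labelled ob/ob-Rosi of either depot. That of non-perivascular macrophages ran from -1.08 to -0.953 and lost its call without the eWAT libraries labelled WT-Veh 1 or ob/ob-Veh 2 or the iWAT library labelled ob/ob-Rosi 1. That of T cell Fabp4 ran from 0.501 to 1.66 and lost its call without the eWAT libraries labelled WT-Veh 1, WT-Veh 2, ob/ob-Veh 1 or ob/ob-Rosi 2 or the iWAT libraries labelled WT-Veh 1, ob/ob-Veh 2 or ob/ob-Rosi 1. In endothelial cells the depots did not differ beyond error for Fabp4 (-0.10 ± 0.24) or Fabp5 (-0.20 ± 0.20). The interaction of depot with either effect was called in 0 of 46 pairs by edgeR (7 at an unadjusted p of at most 0.05), where 0.0321% of all pairs were called, and in 3 by DESeq2. Over all genes, 496 of 12268 (endothelial cells, ob/ob effect) to 526 of 5585 (B cells, Rosi effect) reached that unadjusted limit.

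Other genes that handle fatty acids were read from fixed lists. Among intracellular lipid-binding relatives, Crabp2 had 38 UMIs in each depot, Fabp9 had 118 and 48, and Fabp1, Fabp2, Fabp6, Fabp12, Pmp2, Crabp1 and Rbp2 had at most 13 UMIs in a depot. Rbp7, which carries retinol, fell in eWAT stromal cells labelled ob/ob-Veh (-2.31 on the log2 scale), a call lost without the first library labelled WT-Veh or the first labelled ob/ob-Veh. Stromal Rbp7 was 12.9, 11.3, 1.75, 3.49, 4.48 and 3.06 CPM, beside 18.3, 22.8, 1.22, 6.07, 8.12 and 4.2 CPM in lymphocytes. Of 15 tested genes of fatty acid uptake and activation, 2 fell, Cd36 (-2.24) and Lpl (-1.23), 0 rose, and Cd36 alone rose labelled ob/ob-Rosi (1.41). The fall of Cd36 was called in all 19 alternatives, that of Lpl was lost without any 1 of the 4 libraries compared, and the rise of Cd36 was lost without either library labelled ob/ob-Veh or the second labelled ob/ob-Rosi. Stromal Cd36 was 300, 208, 45.8, 69.4, 166 and 127 CPM. Lymphocytes held more of it in each library, at 554, 341, 175, 178, 533 and 325 CPM. Stromal Lpl, at 939.5 to 2252 CPM, lay above the 244.3 to 972.1 CPM of lymphocytes. The part of free RNA in the calls of Rbp7, Cd36 and Lpl was not tested. Of 5 tested PPAR and RXR genes 0 were called either way. Over all genes of these cells 7.29% and 8.17% were called in the 2 contrasts. The medians of these last lists were -0.238 and -0.295 for the ob/ob difference, beside -0.00327 over all genes, and 0.212 and 0.201 for the Rosi difference, beside -0.00827.

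In eWAT endothelial cells Rbp7 (-1.20) and the transporter Slc27a1 (-1.84) fell labelled ob/ob-Veh and the caveolar protein Cav1 rose (1.43). Labelled ob/ob-Rosi, Slc27a1 rose (1.62) and Rbp7 fell (-1.07), where 3.67% and 3.93% of all genes were called. Each of these 5 calls was lost in 5 to 9 of 19 alternatives, those without Scrublet doublets and without the first library labelled ob/ob-Veh among them, and each of the other 5 libraries, left out, ended at least 1. The Rbp7 difference labelled ob/ob-Rosi turned to 0.486 without the mixed sub-clusters. Slc27a1 and Cav1 were the only calls among 14 tested uptake and activation genes, and 0 of 4 PPAR and RXR genes were called. The medians of these 2 lists were -0.0734 and 0.000386, then 0.0396 and -0.0163. In iWAT stromal and endothelial cells 0 genes of the uptake and activation list or of the PPAR and RXR list were called by edgeR. Of all genes 0.361% and 0.427% were called in the stromal cells and 1.34% and 0.629% in the endothelial cells. The list medians in iWAT were -0.561 and -0.242, then 0.327 and 0.0716 in stromal cells, and -0.0999 and -0.3, then -0.184 and 0.266 in endothelial cells.

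The genes whose levels ran most like each member were found over 77 sums per library and class in eWAT and 53 in iWAT, which share libraries and free RNA, among 8473 genes. Closest to Fabp4 were Rbp7 (r = 0.813 in eWAT and 0.85 in iWAT), Cyp4b1 (0.823 and 0.795), Epas1, Timp4 and Gng11, several of which are genes of fat endothelium. Closest to Fabp5 were Uqcrq (0.696 and 0.702), Fabp4 (0.675 and 0.785), Uqcr10, Cox7a2 and Cd36 (0.654 and 0.715), of which Uqcrq, Uqcr10 and Cox7a2 encode subunits of the mitochondrial respiratory chain. Closest to Fabp7 were F7 (0.744 and 0.741), Mmp12, Cstb, Gpnmb and Atp6v0d2, and 3 of the 5 are LAM markers of the fixed list. Fabp3 had no close likeness, with Homer3 (0.435 and 0.542) first. With a floor of 1 CPM in place of 10, the 5 genes nearest Fabp4 and Fabp5 were shared, as were 4 of those nearest Fabp7 and 1 of those nearest Fabp3.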

How the data were processed

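UMI counts per gene and barcode were deposited by the authors for 12 libraries (10x 3′ chemistry), and the submitters' processing notes name bcl2fastq 2.19.1.403 and Cell Ranger 3.0.2 with mm10. All 31053 count rows carry a gene symbol. Cells with 700 to 22000 UMIs, 200 to 6000 genes and under 25% mitochondrial UMIs were kept, which are the study's limits. In iWAT no barcode exceeded the highest UMI and mitochondrial limits before this filter.

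Each depot was clustered without Fabp genes (Scanpy 1.11.5, leidenalg 0.10.2, resolution 1), and clusters were named from fixed markers, so names may differ from the study's. Stromal and endothelial cells were clustered again. The members, markers and gene lists were chosen with earlier results of these data known. Doublets were kept, and leaving out Scrublet calls (1.11% to 5.14% of a library) was an alternative. Where Scrublet called 0% (eWAT WT-Veh 2) or 24.5% (iWAT WT-Veh 1), the cells with the highest scores were left out in place of its calls, up to an expected rate (5.18% and 13.6%).

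UMIs were summed per library and class of at least 20 cells and tested with edgeR 4.0.16 (R 4.3.3; TMM, filterByExpr, quasi-likelihood, 1 fit per class over all genes), since cells of a mouse are not replicates. Calls required a p of at most 0.05 after Benjamini-Hochberg adjustment over all genes, and a change of at least 1.1-fold. All p-values measure the spread between 2 libraries a group, or of the other groups where a group had 1 library of at least 20 cells. The test was checked on simulated counts. DESeq2 1.42.0 and other settings were alternatives.

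Named are the 4 members in all classes, listed genes called in stromal or endothelial cells (at most 3 a list and class), and for each member the 5 genes with the highest Pearson r of log2(CPM + 1), ranked by the lower of both depots, among genes averaging at least 10 CPM. The small sub-cluster of preadipocyte-like cells and the cells with at least 2% Fabp4 were singled out after their values were seen. One listed gene and the list values that rest on it are not reported here.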

Additional observations from a re-analysis of the deposited data

How the results depend on the processing

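Over 164 alternative values of the 8 comparison counts, 115 stayed within 1.5 times the reported count. Of 665 alternative values for single members, 561 kept their direction and side of the threshold, 12 lost and 51 gained a call, 12 moved and 29 turned. The causes were not tested. The count of 24 eWAT ob/ob calls ran from 13 to 25 with each library left out in turn, and that of 21 Rosi calls from 9 to 20. The single eWAT call between ob/ob-Rosi and WT-Veh became 0 with Scrublet doublets, with cells holding adipocyte RNA or with sub-clusters led by another lineage left out, and 0 to 1 with a library left out. The 2 iWAT ob/ob calls became 7 with DESeq2, 9 without a filter on low counts, 1 with thinned cells, 5 and 8 at Leiden resolutions 0.5 and 2, 1 without the sub-clusters of another lineage, and 0 to 11 with a library left out. The 1 iWAT Rosi call became 8, 10, 0, 5 and 6 under the first 5 of these settings and 0 to 11 with a library left out. The iWAT count of ob/ob-Rosi against WT-Veh went from 0 to 1 without the filter. The 5 depot calls became 8 without the filter, 1 with thinned cells, 3 and 3 at both other resolutions, 2 with at least 50 cells a class, and 2 to 5 with a library left out. The 0 interaction calls became 3 with DESeq2 and 5 without the filter.

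Replicate numbers recur in each group but mark no stated pairing. Deviations of same-numbered libraries correlated at 0.265 to 0.449 in eWAT and -0.0138 to 0.728 in iWAT. With the replicate number as a block, calls were 26, 25 and 1 in eWAT, 9, 8 and 0 in iWAT, 4 between depots and 2 for the interaction.

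Values near 0 turned sign. Endothelial Fabp4 in eWAT turned to 0.103 (library size alone) and 0.0605 (thinned) for the ob/ob difference, which ran from -0.203 to 0.135 with a library left out, and to -0.0728 (library size) for the Rosi difference, which ran from -0.209 to 0.248. Each of these differences was also called in 1 alternative, with its main sign. The depot difference of endothelial Fabp4 turned to 0.194 without adipocyte RNA cells, and 0.638 without the mixed sub-clusters, and ran from -0.293 to 0.047 with a library left out. That of Fabp5 turned to 0.85 without the mixed sub-clusters. The stromal Fabp4 depot difference, 0.53, ran from -0.0983 (without iWAT ob/ob-Veh 2) to 0.789. LAM Fabp5 in eWAT turned to -0.042 (block), -0.761 (thinned), -0.086 and -1.73 (resolutions 0.5 and 2), and -0.0482 (cells with endothelial UMIs left out) for the ob/ob difference, which ran from -0.654 (without ob/ob-Veh 1) to 0.501. For the Rosi difference it turned to 0.00801 (no filter), 0.0359 (block), 0.579 (thinned), 0.0607 and 1.72 (resolutions), and 0.0126 (endothelial UMIs), and ran from -0.494 to 0.661 (without ob/ob-Veh 1). The LAM Fabp4 depot difference turned to 0.0774 (library size), 0.0756 (thinned) and 0.591 (resolution 2). Leaving out the mixed sub-clusters was chosen after seeing the data.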
